A study of Mus musculus with 12 samples.

Results

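The annexins are a family of calcium-dependent, phospholipid-binding proteins, and the RNA of 9 of them was followed here across WT and P53-/- mouse embryonic stem cells (ESCs) in 2 culture conditions. The members are *Anxa1*, *Anxa2*, *Anxa3*, *Anxa4*, *Anxa5*, *Anxa6*, *Anxa7*, *Anxa8* and *Anxa11*, taken by gene symbol from the 24881 symbols of the expression table. The table holds 12 annexin symbols in all, and the other 3, *Anxa9*, *Anxa10* and *Anxa13*, were near or at 0. *Anxa8* was picked because its level differed between WT and P53-/- 2i ESCs, and it passed the filter on low values only through the WT 2i libraries, so all its values are given as a description without a test. The other 8 members were picked by family name to be set beside it, and all 8 passed the filter, a mean of at least 0.5 over the 8 libraries in FPKM, a level in which fragment counts are scaled by transcript length and by sequencing depth.

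Annexins carry a conserved core of repeats, which in most of them binds acidic phospholipids when calcium is present, and a variable N-terminal tail that binds partner proteins. Annexins are known for linking membranes to the actin cytoskeleton, for vesicle trafficking, and for closing wounds in the plasma membrane. Several form complexes with small S100 proteins, and *Anxa5* is widely used as a probe for phosphatidylserine on dying cells.

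RNA was sequenced from R1 mouse ESCs that carry FUCCI reporters, fluorescent markers of cell cycle phase, and that were sorted for G1 phase. WT and P53-/- cells, the latter made by CRISPR/Cas9 cutting of an exon shared by the *Trp53* isoforms, were grown either in serum or in 2i, a serum-free medium with inhibitors of MEK and GSK3. All 4 groups share the R1 background, the FUCCI reporters and the G1 gate, and each has 2 libraries. The study used 2 P53-/- clones for RNA-seq, and the source of each library among them is not given in the sources used here. Nothing states that the 2 libraries of a group came from separate cultures, so the p-values measure only the spread between these libraries. Libraries 1 and 2 of a group are named by column order.

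*Trp53* stood at 26.8 and 33.7 FPKM in the WT 2i libraries, 7.25 and 1.88 in P53-/- 2i ESCs, 77.6 and 75.1 in the WT serum libraries, and 16.8 and 3.68 in P53-/- serum ESCs. It was lower in both P53-/- libraries of each culture, though not at 0. Between 15181 and 15792 symbols were above 0 per library, and none of 12 housekeeping genes was at 0. The step size of low values put the depth at 5200000 to 13000000 fragments per library, up to a factor common to all. The 10 ESC markers summed to 3658 to 4580 FPKM, and none of them was under 1 FPKM in every library. On loss of P53 1 of the 10, *Klf4*, was called lower in 2i (5.97% of all genes tested) and 0 in serum (1.02% in either direction). Between 2i and serum 1 was called higher and 3 lower in WT (27.2% and 28.6%), and 1 higher and 6 lower in P53-/- (28% and 30.1%). Of 12 fibroblast markers 10 were under 1 FPKM in every library, 2 of these at 0 throughout. Their summed range was 2.43 to 12.2, highest in serum, where *Thy1* alone was at 7.55 to 10.5. The 10 mesoderm markers summed to 2.34 to 5.87. The 10 trophoblast markers summed to 79.5 to 131 in the WT 2i libraries, 67.5 to 69.0 in P53-/- 2i, 20.4 to 20.7 in the WT serum libraries and 13.2 to 19.8 in P53-/- serum, with 3 of them under 1 FPKM and none at 0 in every library. *Krt8* alone was at 102.6 and 51.9 in the WT 2i libraries, 43.3 and 42.9 in P53-/- 2i, and 1.91 to 6.31 in serum. The 10 primitive endoderm markers summed to 1.24 to 10.98, highest in WT 2i library 1, where *Hnf4a* was at 6.63 FPKM against 0.938 in WT 2i library 2. Of the trophoblast markers 7 passed the filter, and 3 of them were called higher in 2i and 0 lower in WT (27.2% and 28.6% of all genes tested). In P53-/- *Krt8* and *Krt18* were called higher and *Eomes* lower (28% and 30.1%). *Krt7* passed the filter only through the P53-/- 2i libraries, at 2.39 and 1.94 FPKM against 0.0716 to 0.883 elsewhere. Its differences are therefore a description, on loss of P53 in 2i 2.14 on the log2 scale. No other trophoblast marker was called on loss of P53 in 2i (10.3% of all genes tested), and none in serum (1.02%). Of the 2 primitive endoderm, 4 mesoderm and 2 fibroblast markers that passed the filter, 0, 1 (*Tal1*) and 0 were called lower on loss of P53 in 2i (5.97% of all genes tested). None was called in serum (1.02% of all genes tested). Between 2i and serum *Gata4*, *Kdr* and *Pdgfrb* were called higher in WT and *Thy1* lower. In P53-/- *Gata4* was called higher and *Tal1* and *Thy1* lower. The shares over all genes tested are those beside the ESC markers. *Hnf4a* and *T* (2.06 and 3.72 FPKM in WT 2i, 0 to 1.38 elsewhere) passed the filter only through the WT 2i libraries. *Meox1* (0 in 2i, 0.626 to 1.53 in serum) passed only through the serum libraries. The differences of *Hnf4a*, *T* and *Meox1* are a description, and their calls are left out. The part of these markers in the results was not tested.

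Annexin RNA was plentiful in 2i ESCs and lower in serum ESCs, and the order of the members changed with culture. In WT 2i ESCs *Anxa2* had the highest mean, 56.5 ± 24.5 FPKM (SD, n = 2), followed by *Anxa7*, *Anxa6*, *Anxa1*, *Anxa4*, *Anxa8*, *Anxa5*, *Anxa11* and *Anxa3*. The libraries overlapped between *Anxa2* and *Anxa7*, between *Anxa1* and *Anxa4*, and between *Anxa8* and *Anxa5*, so those neighbours were not separated. In P53-/- 2i ESCs *Anxa2* again led with 74.5 ± 14.9, *Anxa3* and *Anxa11* overlapped, and *Anxa8* was last with a mean of 0.0297. In WT serum ESCs *Anxa7* led with 31.7 ± 0.930, ahead of *Anxa6*, *Anxa2*, *Anxa1*, *Anxa5*, *Anxa11*, *Anxa4*, *Anxa3* and *Anxa8*, with *Anxa1* and *Anxa5*, and *Anxa11* and *Anxa4*, overlapping. In P53-/- serum ESCs *Anxa7* (25.6 ± 0.618) and *Anxa6* (23.3 ± 6.13) overlapped at the top, and *Anxa8* was listed at 0 in both libraries.

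**Figure D1:**
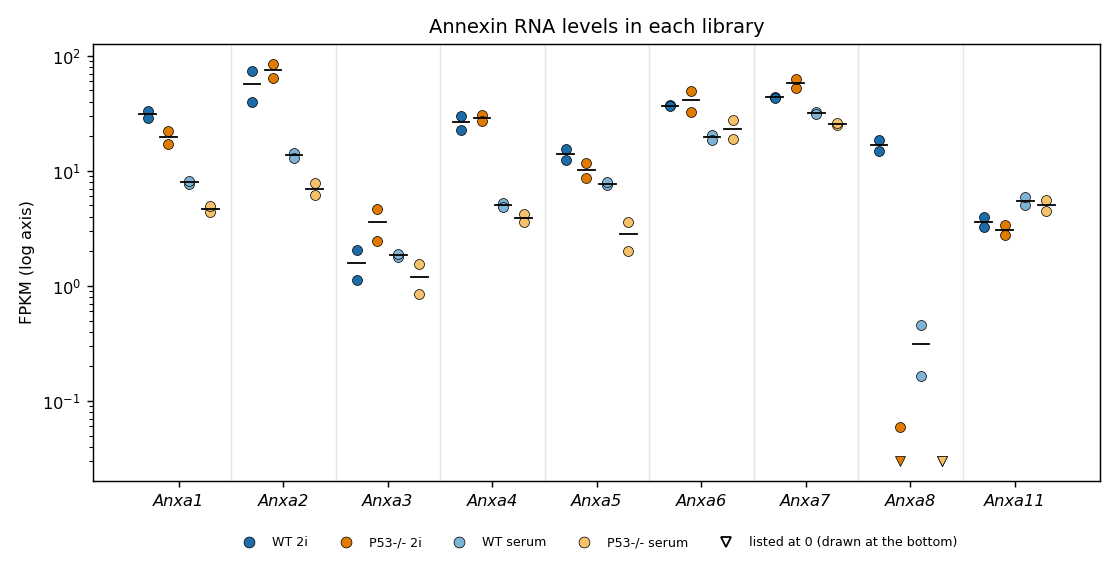
FPKM of the 9 annexins in each library on a log axis, by group (points, single libraries; bars, mean of 2 libraries where both are above 0; triangles, libraries listed at 0, drawn at the bottom). *Anxa8* is at 14.9 and 18.5 in the WT 2i libraries and under 0.5 in the other 6 libraries, while *Anxa7* lies between 25.2 and 62.9 throughout.

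The first comparison was 2i against serum culture, made separately in WT and in P53-/- ESCs. Most annexins were higher in 2i. *Anxa4*, *Anxa2* and *Anxa1* rose the most of the tested members in both genotypes, and *Anxa11* was the one member called lower, in both genotypes. A gene was called when its limma p, adjusted over all genes tested, was under 0.1 and it differed by more than 1.5-fold on the log2(FPKM + 0.1) scale. In WT ESCs 5 of the 8 members tested without *Anxa8* were called higher in 2i and 1 lower, against 27.2% and 28.6% of all genes tested. In P53-/- ESCs 7 of 8 were called higher and 1 lower, against 28% and 30.1% of all genes tested. The median difference of the 8 members was 0.87 on the log2 scale in WT and 1.67 in P53-/-, while the median of all genes was -0.02 and -0.03. The 4 libraries in 2i were all above the 4 in serum for 6 members, a separation seen in 28.8% of all genes tested. Culture moved much of the transcriptome: 55.7% of all genes tested were called in WT and 58.2% in P53-/-, and an unadjusted p under 0.05 was reached by 7 of the 8 members in WT (63.8% of all genes) and by 8 of 8 in P53-/- (66% of all genes).

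*Anxa1*, a glucocorticoid-induced annexin that can inhibit phospholipase A2, was at 33.1 and 28.7 FPKM in the WT 2i libraries and 17.2 and 22.0 in P53-/- 2i, against 7.67 and 8.17 in the WT serum libraries and 4.38 and 4.99 in P53-/- serum. No 2i library overlapped with a serum library. Its log2 difference was 1.95 ± 0.16 (SE) in WT (adjusted p = 7.3e-05) and 2.04 ± 0.16 in P53-/- (adjusted p = 5.18e-05).

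*Anxa2*, which with *S100a10* forms a complex that bridges membranes and actin, was at 73.8 and 39.2 in the WT 2i libraries and 63.9 and 85.0 in P53-/- 2i, against 14.19 and 13.03 in the WT serum libraries and 7.77 and 6.18 in P53-/- serum. The 2 WT 2i libraries differed widely, and the higher of them, library 1, also had the higher trophoblast marker sum (131 against 79.5 FPKM). Most of that sum was *Krt8*, at 102.6 in library 1 and 51.9 in library 2. *Krt18*, *Eomes*, *Ascl2* and *Hand1* were also higher in library 1. *Tfap2c* (8.71 against 12.7), *Cdx2*, *Krt7* and *Elf5* were higher in library 2. The part of these markers in the *Anxa2* level was not tested. The log2 difference was 1.98 ± 0.29 in WT (adjusted p = 0.000746) and 3.39 ± 0.29 in P53-/- (adjusted p = 6.1e-05). *Anxa2* has an annotated pseudogene, and reads that match both could have been split in the authors' counting.

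*Anxa4*, found mainly in epithelial cells and able to aggregate membranes, was at 30.0 and 22.8 in the WT 2i libraries, 30.8 and 27.0 in P53-/- 2i, 5.23 and 4.81 in the WT serum libraries, and 4.22 and 3.57 in P53-/- serum. The 2 genotypes overlapped in 2i, and the cultures stood far apart. The log2 difference was 2.36 ± 0.17 in WT (adjusted p = 4.92e-05) and 2.86 ± 0.17 in P53-/- (adjusted p = 2.33e-05).

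*Anxa5*, the phosphatidylserine binder, was at 12.5 and 15.5 in the WT 2i libraries and 11.7 and 8.73 in P53-/- 2i, against 7.45 and 8.04 in the WT serum libraries and 3.58 and 2.02 in P53-/- serum. The gap between the lowest 2i library, 8.73, and the highest serum library, 8.04, was narrow. Its log2 difference was 0.84 ± 0.27 in WT (adjusted p = 0.0294) and 1.87 ± 0.27 in P53-/- (adjusted p = 0.000696). The WT call was lost without WT 2i library 2 (log2 difference 0.69, adjusted p = 0.139), WT serum library 1 (0.79, 0.143) or WT serum library 2 (0.90, 0.111).

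*Anxa6*, whose core is duplicated and which is known to bind cholesterol-rich late endosomes, was at 37.1 and 36.7 in the WT 2i libraries and 49.5 and 32.7 in P53-/- 2i, against 20.6 and 18.7 in the WT serum libraries and 27.6 and 19.0 in P53-/- serum. It rose by 0.91 ± 0.23 on the log2 scale in WT (adjusted p = 0.0106) and 0.81 ± 0.23 in P53-/- (adjusted p = 0.0166). In P53-/- the call was lost without P53-/- 2i library 1 (0.51, adjusted p = 0.109) or P53-/- serum library 2 (0.54, adjusted p = 0.112).

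*Anxa7*, also called synexin and known for promoting membrane fusion in secretory cells, was at 43.9 and 43.0 in the WT 2i libraries, 52.9 and 62.9 in P53-/- 2i, 32.4 and 31.1 in the WT serum libraries, and 25.17 and 26.04 in P53-/- serum. The 4 groups did not overlap. In WT its log2 difference of 0.45 ± 0.12 (adjusted p = 0.013) was under the fold threshold, though over it with quantile normalization (0.66), and in P53-/- it rose by 1.17 ± 0.12 (adjusted p = 0.00014).

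*Anxa3*, at 0.852 to 4.68 FPKM, was among the lowest members in every group. It was at 2.05 and 1.13 in the WT 2i libraries and at 1.79 and 1.89 in the WT serum libraries, which overlapped (log2 difference -0.26 ± 0.43, adjusted p = 0.625). In P53-/- ESCs it was at 2.44 and 4.68 in 2i against 1.55 and 0.852 in serum, a log2 difference of 1.48 ± 0.43 (adjusted p = 0.0173). This call was lost without P53-/- 2i library 2 (1.02, adjusted p = 0.119) or P53-/- serum library 2 (1.08, adjusted p = 0.113).

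*Anxa11*, which has a long N-terminal tail and links RNA granules to lysosomes, went the other way. It was at 3.22 and 3.95 in the WT 2i libraries and 3.36 and 2.79 in P53-/- 2i, against 5.09 and 5.93 in the WT serum libraries and 4.44 and 5.63 in P53-/- serum, so that all 2i libraries lay below all serum libraries (32% of all genes tested did so). It fell by 0.61 on the log2 scale in WT (SE 0.21, adjusted p = 0.0343) and fell by 0.69 in P53-/- (SE 0.21, adjusted p = 0.0203). Both changes were close to the fold threshold, and they were under it with a pseudocount of 1 (-0.51 in WT, -0.56 in P53-/-), as was the WT one with median-ratio scaling (-0.58). The WT call was lost without WT 2i library 1 (-0.47, adjusted p = 0.149) or WT serum library 2 (-0.50, adjusted p = 0.194), and the P53-/- call without P53-/- 2i library 2 (-0.56, adjusted p = 0.106) or P53-/- serum library 2 (-0.52, adjusted p = 0.116). An antisense gene overlaps *Anxa11*, and whether the authors counted by strand is not given in the sources used here.

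**Figure D2:**
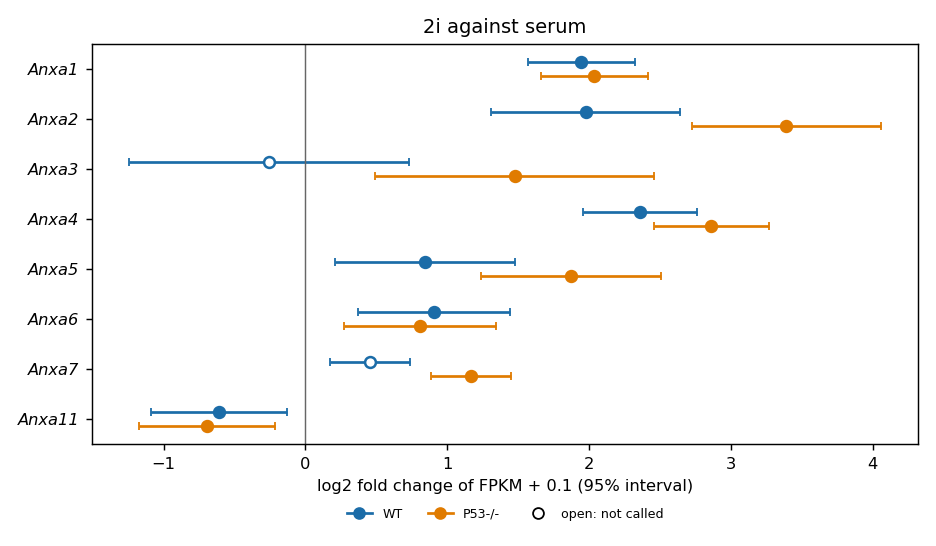
Log2 difference of FPKM + 0.1 between 2i and serum for the 8 members without *Anxa8*, in WT and P53-/- ESCs (points, estimate; lines, 95% interval of the limma fit; open points, not called). *Anxa1*, *Anxa2* and *Anxa4* lie between 1.95 and 3.39 in both genotypes, *Anxa7* at 0.45 in WT and 1.17 in P53-/-, and *Anxa11* lies below 0 in both.

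The promoters of *Anxa4* and *Anxa2*, the 2 members without *Anxa8* with the largest difference between cultures, and of the member that went the other way, *Anxa11*, are shown to set their sequences side by side. They are RefSeq sequences of the GRCm38.p6 build, read 5′ to 3′ on the strand of the gene, from within the 250 bases before the start. The build of the deposited values is mm9, and these positions are not on it. *Anxa2* is chr9:69453433-69453619 on the plus strand and stops before an annotated exon, *Anxa4* is chr6:86793585-86793834 on the minus strand, the upstream one of 2 annotated starts, and *Anxa11* is chr14:25841905-25842154 on the plus strand. Capitals mark matches to a GC box (GGGCGG) or to the AP-1 motif (TGANTCA), read on both strands.
Anxa2: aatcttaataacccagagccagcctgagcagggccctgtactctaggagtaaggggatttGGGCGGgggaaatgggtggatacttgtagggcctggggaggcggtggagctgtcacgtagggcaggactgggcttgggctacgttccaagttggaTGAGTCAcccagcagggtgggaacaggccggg
Anxa4: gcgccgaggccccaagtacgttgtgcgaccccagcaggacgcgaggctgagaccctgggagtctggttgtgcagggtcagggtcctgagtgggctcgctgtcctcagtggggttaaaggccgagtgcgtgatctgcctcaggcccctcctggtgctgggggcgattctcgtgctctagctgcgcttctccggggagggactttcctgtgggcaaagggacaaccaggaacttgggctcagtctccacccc
Anxa11: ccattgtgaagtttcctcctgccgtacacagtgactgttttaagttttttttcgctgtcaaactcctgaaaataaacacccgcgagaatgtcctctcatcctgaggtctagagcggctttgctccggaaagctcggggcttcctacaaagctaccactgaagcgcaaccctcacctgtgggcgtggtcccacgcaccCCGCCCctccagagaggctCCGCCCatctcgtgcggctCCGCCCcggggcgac

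Over the 250 bases before the start, *Anxa2* held 3 GC boxes, 1 AP-1 match and 1 TATA box (TATAAA), and *Anxa11* held 3 GC boxes that begin at positions -53, -34 and -15, counted back from the base before its start. Neither start of *Anxa4* held any of the motifs searched, which also included a TCF motif (CTTTGAT), a STAT3 motif (TTCNNNGAA) and the P53 motif described with *Anxa8*. Of 32851 mouse promoters, 32.7% held the GC box, 12.4% the TATA box, 6.75% the AP-1 motif, 3.21% the TCF motif and 7.02% the STAT3 motif. None of the matches in these promoters overlapped another. Promoter sequence was at hand for 7 of the 9 members, and *Anxa3* and *Anxa6* had no entry.

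The second comparison was P53-/- against WT ESCs within each culture, which asks how the annexins depend on P53. Among the 8 members tested, which leave out *Anxa8*, loss of P53 left most without a call. In 2i *Anxa1* fell to 0.636 times its mean WT level, in serum *Anxa5* fell to 0.361 times, and no tested member was called higher in either culture. In 2i 1 of the 8 members tested was called lower and 0 higher, against 5.97% and 4.36% of all genes tested (10.3% in either direction), and 3 of 8 had an unadjusted p under 0.05 in limma, against 25.2% of all genes tested. In serum 1 of the 8 was called lower and 0 higher, against 0.883% and 0.135% of all genes tested (1.02% in either direction), and 4 of 8 had an unadjusted p under 0.05, against 11.3%. The P53 comparison in 2i and the culture comparison in WT share the WT 2i libraries.

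In 2i *Anxa1* was at 17.2 and 22.0 FPKM in P53-/- and 33.1 and 28.7 in WT, without overlap, and it fell by 0.66 on the log2 scale (SE 0.16, adjusted p = 0.0547). The call was lost in a fit of the 2i groups alone (adjusted p = 0.187) and without WT 2i library 1 (-0.55, adjusted p = 0.167), P53-/- 2i library 1 (-0.48, adjusted p = 0.202), WT serum library 1 (adjusted p = 0.128) or WT serum library 2 (adjusted p = 0.129), with the log2 difference of the last 2 fits as before. *Anxa7* was higher in both P53-/- libraries, 52.9 and 62.9 against 43.9 and 43.0, but its log2 difference of 0.41 ± 0.12 (adjusted p = 0.0873) was under the fold threshold. *Anxa3* was also higher in both, 2.44 and 4.68 against 2.05 and 1.13, and missed the threshold on p (1.10 ± 0.43, adjusted p = 0.157). *Anxa5* was lower in both, 11.7 and 8.73 against 12.5 and 15.5 (-0.46 ± 0.27, adjusted p = 0.344). So 2 of the 8 had both P53-/- libraries above WT and 2 both below, against 29% and 24.7% of all genes tested.

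*Anxa2*, *Anxa4*, *Anxa6* and *Anxa11* overlapped between genotypes in 2i, with log2 differences of 0.45, 0.14, 0.12 and -0.21 and adjusted p of 0.375, 0.675, 0.795 and 0.569. *Anxa2* depended on the WT 2i libraries. Without WT 2i library 1 its log2 difference was 0.91 and it was called (adjusted p = 0.0786), while without WT 2i library 2 its log2 difference was -0.0024. The 95% interval of its difference, -0.21 to 1.12, holds both no change and a rise of more than 2-fold.

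In serum *Anxa5* was at 3.58 and 2.02 FPKM in P53-/- and 7.45 and 8.04 in WT, and it fell by 1.49 on the log2 scale (SE 0.27, adjusted p = 0.082). The call held without P53-/- serum library 1 (-1.89, adjusted p = 0.041) and was lost when any of the other 7 libraries was left out. The adjusted p was then 0.478 without WT serum library 1, 0.436 without WT serum library 2, 0.278 without P53-/- serum library 2, where the log2 difference was -1.09, and 0.135 to 0.141 without a 2i library. It was also lost in a fit of the serum groups alone (adjusted p = 0.283).

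The other members in serum did not pass the threshold, and most stood lower in P53-/-. Both P53-/- libraries lay below both WT libraries for 6 of the 8 members, *Anxa1*, *Anxa2*, *Anxa3*, *Anxa4*, *Anxa5* and *Anxa7*, against 21.8% of all genes tested, and above them for 0 of 8, against 25.7%. The median log2 difference of the 8 was -0.50, with 0.02 over all genes. *Anxa1* was at 4.38 and 4.99 in P53-/- against 7.67 and 8.17 in WT (-0.75 ± 0.16, adjusted p = 0.13). *Anxa2* was at 7.77 and 6.18 against 14.19 and 13.03 (-0.96 ± 0.29, adjusted p = 0.272). *Anxa3*, *Anxa4* and *Anxa7* had log2 differences of -0.63, -0.36 and -0.31 with adjusted p of 0.617, 0.483 and 0.397. *Anxa6* (0.22) and *Anxa11* (-0.13) overlapped between genotypes.

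Whether loss of P53 acted differently in 2i and serum was tested as the difference of the 2 effects. None of the 8 members was called, against 0.207% of all genes tested (0.103% higher and 0.103% lower), and 4 of 8 had an unadjusted p under 0.05 in limma, against 13.1%. These were *Anxa2* (difference 1.42 ± 0.41, adjusted p = 0.226), *Anxa3* (1.73 ± 0.60, adjusted p = 0.3), *Anxa5* (1.03 ± 0.39, adjusted p = 0.331) and *Anxa7* (0.71 ± 0.17, adjusted p = 0.178). In each of the 4 the P53-/- level relative to WT was higher in 2i than in serum, a difference that did not pass the threshold. Without WT 2i library 1 *Anxa2* was called (1.87, adjusted p = 0.0945). The intervals of the other members were -0.44 to 0.62 for *Anxa1*, -0.07 to 1.07 for *Anxa4*, -0.86 to 0.66 for *Anxa6* and -0.76 to 0.60 for *Anxa11*.

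**Figure D3:**
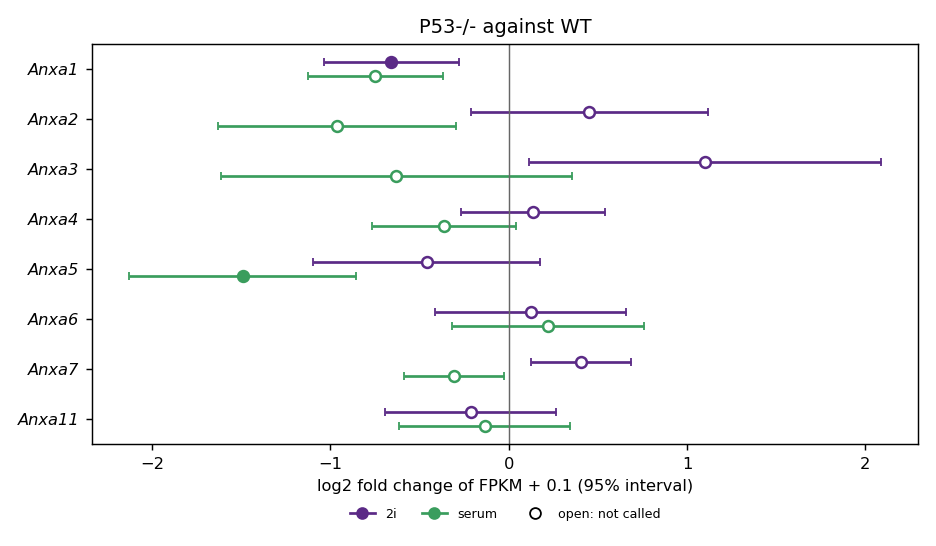
Log2 difference of FPKM + 0.1 between P53-/- and WT ESCs for the 8 members without *Anxa8*, in 2i and serum (points, estimate; lines, 95% interval of the limma fit; open points, not called). Only *Anxa1* in 2i (-0.66) and *Anxa5* in serum (-1.49) are filled.

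*Anxa8*, an annexin of stratified epithelia known to act on late endosomes, was the one member below 1 FPKM in 6 of the 8 libraries. It was at 14.9 and 18.5 FPKM in the WT 2i libraries, 0.0593 and 0 in P53-/- 2i ESCs, 0.457 and 0.164 in the WT serum libraries, and 0 in both P53-/- serum libraries. It was thus high in the 2 WT 2i libraries alone. By the depth estimate these values stand for 221 and 181 fragments in the WT 2i libraries, 1.1 and 0 in P53-/- 2i, and 11.2 and 2.2 in the WT serum libraries. Since the P53-/- 2i level rests on about 1 fragment, the size of the difference is set by the pseudocount: on the log2 scale it was -7.05 with 0.1 added, -4.10 with 1 and -9.30 with 0.01. In serum both P53-/- libraries were listed at 0 and lay below both WT libraries, whose values rest on few fragments. Between 2i and serum the log2 difference of *Anxa8* was 5.44 in WT and 0.34 in P53-/- ESCs, given without a test, and other settings put it at 3.76 to 5.86 in WT and 0.042 to 1.397 in P53-/-. In bulk RNA, fewer cells that express a gene and less RNA per cell cannot be told apart.

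The promoter of *Anxa8* is shown because of this pattern, at chr14:34085729-34085978 of GRCm38.p6 on the plus strand, the 250 bases before the start, from RefSeq. Capitals mark its single match to the 10-base P53 motif, with at most 1 mismatch outside the central bases.
Anxa8: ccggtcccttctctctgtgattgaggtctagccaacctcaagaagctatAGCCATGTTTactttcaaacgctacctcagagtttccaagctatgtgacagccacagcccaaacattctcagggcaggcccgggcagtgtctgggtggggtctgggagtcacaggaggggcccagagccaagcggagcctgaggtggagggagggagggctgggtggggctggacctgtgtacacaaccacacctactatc

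The match spans positions -201 to -192. Such a match is common: 34.4% of the 32851 promoters held one, 7.13% held one without a mismatch, and 1.14% held a pair at most 13 bases apart, the arrangement P53 is known to bind. None of the 7 members with promoter sequence had such a pair. *Anxa1* had 1 match without a mismatch, at positions -136 to -127, and *Anxa7* had 1 with a mismatch, at positions -104 to -95, while *Anxa2*, *Anxa4*, *Anxa5* and *Anxa11* had none.

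Over the 8 libraries the Pearson correlation of log2(FPKM + 0.1) with *Anxa8* was 0.69 for *Anxa1*, 0.65 for *Anxa5*, 0.47 for *Anxa4*, 0.41 for *Anxa2*, 0.34 for *Anxa6*, 0.22 for *Anxa7*, -0.22 for *Anxa3* and -0.23 for *Anxa11*. Among the other members the correlation was highest between *Anxa2* and *Anxa4* (0.98) and between *Anxa2* and *Anxa7* (0.96), *Anxa3* had 0.39 to 0.74 with *Anxa1*, *Anxa2*, *Anxa4*, *Anxa5*, *Anxa6* and *Anxa7*, and *Anxa11* was negative to each of them. These are descriptions over 8 points that share 4 groups. The 5 genes most like *Anxa8* among the 12572 tested were *Ngfr* (0.989), *Thoc6* (0.988), *Ms4a10* (0.985), *Pcsk6* (0.983) and *Cpne2* (0.977).

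*Ngfr*, the low-affinity neurotrophin receptor, was at 16.0 and 18.1 FPKM in the WT 2i libraries, 7.05 and 5.46 in P53-/- 2i, 9.32 and 8.03 in the WT serum libraries, and 6.41 and 6.44 in P53-/- serum. *Thoc6*, a subunit of the THO complex in mRNA export, was at 39.2 and 39.6 in the WT 2i libraries and at 13.7 to 20.99 in the other 6 libraries. *Pcsk6*, a proprotein convertase, was at 31.9 and 27.4 in the WT 2i libraries and 11.1 to 14.5 elsewhere. All 3 kept a clear level outside WT 2i, which *Anxa8* did not. *Ms4a10* was at 1.94 and 2.53 in the WT 2i libraries, 0.256 and 0 in the WT serum libraries, and 0 in the 4 P53-/- libraries. *Cpne2*, a copine, was at 2.59 and 3.20 in the WT 2i libraries, 0.0455 and 0 in P53-/- 2i, 0.299 and 0.313 in the WT serum libraries, and 0.106 and 0.0470 in P53-/- serum. Since these 5 genes were picked for following *Anxa8*, their differences were not tested as support.

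**Figure D4:**
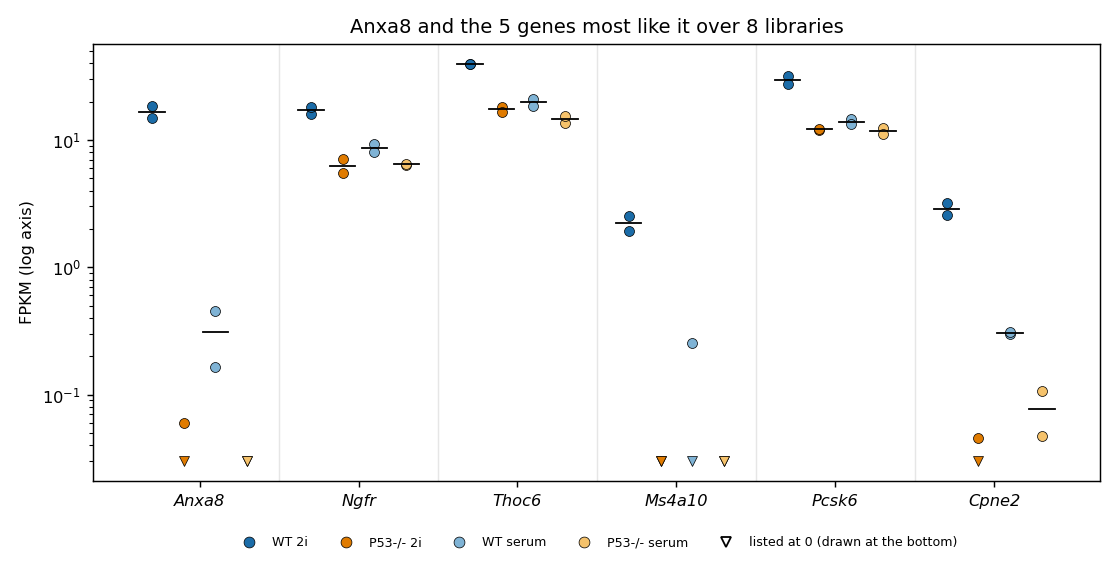
FPKM of *Anxa8* and the 5 genes most correlated with it, by library on a log axis (points, single libraries; bars, mean of 2 libraries where both are above 0; triangles, libraries listed at 0, drawn at the bottom). Each gene is highest in the 2 WT 2i libraries, and *Anxa8*, *Ms4a10* and *Cpne2* drop below 0.5 elsewhere while *Ngfr*, *Thoc6* and *Pcsk6* stay above 5.

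Summed over the 9 members, annexin RNA was 250.6 and 209.6 FPKM in the WT 2i libraries, 231.8 and 245.8 in P53-/- 2i, 94.9 and 91.8 in the WT serum libraries, and 78.7 and 68.2 in P53-/- serum. The 2 genotypes overlapped in 2i, with means of 230.1 ± 29.0 in WT and 238.8 ± 9.85 (SD, n = 2) in P53-/-, while in serum the P53-/- libraries lay below WT (73.5 ± 7.43 against 93.3 ± 2.19). *Anxa8* made up 5.93% and 8.84% of the sum in WT 2i and at most 0.481% in any other library. *Anxa2* made up 18.7% to 34.6% in 2i and 9.06% to 15.0% in serum, while in serum *Anxa7* made up 31.97% to 38.2% and *Anxa6* 20.4% to 35.1%.

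**Figure D5:**
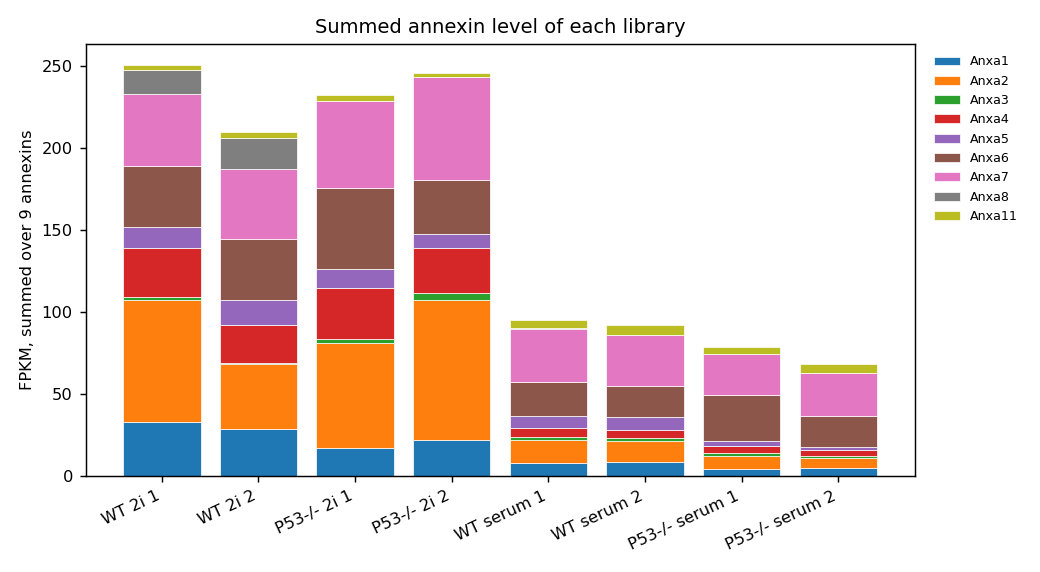
FPKM summed over the 9 annexins in each library, stacked by member on an axis that starts at 0. The 4 libraries in 2i reach 209.6 to 250.6 and the 4 in serum 68.2 to 94.9, with *Anxa8* visible in the 2 WT 2i libraries.

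The remaining annexins gave little signal. *Anxa9* was between 0.106 and 0.348 FPKM in the 8 libraries. *Anxa10* was listed at 0 in the 4 WT libraries and at 0.116, 0.107, 0.0472 and 0.181 in the P53-/- libraries, 1 to 3 fragments each by the depth estimate. *Anxa13* was listed at 0 throughout.

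Of 13 genes for annexin partner proteins, 8 passed the filter. None was called in the P53 comparison in 2i, in serum or in their difference, where 10.3%, 1.02% and 0.207% of all genes tested were called, and in limma 1, 2 and 0 of them had an unadjusted p under 0.05, against 25.2%, 11.3% and 13.1%. In the culture comparison 2 of 8 were called higher and 2 lower in WT (27.2% and 28.6% of all genes tested), and 2 higher and 1 lower in P53-/- (28% and 30.1%). *S100a10*, the partner of *Anxa2*, was at 203.7 and 137.7 FPKM in the WT 2i libraries, 110.7 and 127.6 in P53-/- 2i, 193.4 and 281.1 in the WT serum libraries, and 149.1 and 147.9 in P53-/- serum. It was abundant in every group and did not follow *Anxa2* across cultures. Its log2 difference between 2i and serum was -0.48 ± 0.23 in WT (adjusted p = 0.108), so that the ratio of *Anxa2* to *S100a10* was 0.285 to 0.666 in 2i and 0.0418 to 0.0734 in serum. On loss of P53 *S100a10* differed by -0.49 ± 0.23 in 2i (adjusted p = 0.23) and -0.65 ± 0.23 in serum (adjusted p = 0.34). *S100a11*, a partner of *Anxa1*, was far lower, at 0.278 to 4.0002 FPKM, with log2 differences on P53 loss of -1.48 in 2i and -1.69 in serum (adjusted p = 0.277 and 0.46).

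Of 18 genes known for plasma membrane repair, where annexins act with dysferlin-type proteins, calpains and other factors, 14 passed the filter. In the culture comparison 5 of 14 were called higher in 2i and 3 lower in WT (27.2% and 28.6% of all genes tested), and 7 higher and 2 lower in P53-/- (28% and 30.1%). On loss of P53 1 of 14 was called lower in each culture (5.97% of all genes tested in 2i and 0.883% in serum), and none was called in the difference of the 2 effects (0.207% of all genes tested). In limma 3, 3 and 1 of the 14 had an unadjusted p under 0.05 in 2i, in serum and in the difference, against 25.2%, 11.3% and 13.1% of all genes tested. The gene called in 2i was *Myof*, a ferlin of membrane fusion, at 10.1 and 9.68 FPKM in P53-/- against 20.98 and 14.17 in WT. It fell by 0.79 on the log2 scale (SE 0.20, adjusted p = 0.0547). That call was lost in a fit of the 2i groups alone and in 5 of 8 fits that left out a library: WT 2i library 1 (-0.51), P53-/- 2i library 1 (-0.83), P53-/- 2i library 2 (-0.76), WT serum library 1 or WT serum library 2, with adjusted p of up to 0.216. In serum *Capn2*, the large subunit of m-calpain, was at 8.73 and 8.25 in P53-/- against 14.1 and 15.6 in WT, and it fell by 0.80 (SE 0.15, adjusted p = 0.0891). This call was lost whichever of the 8 libraries was left out, with log2 differences of -0.87 to -0.73 and an adjusted p of up to 0.446, and it held in 6 of 11 settings.

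Copines are calcium-dependent phospholipid-binding proteins that are not annexins, and 4 of 9 passed the filter. One of them, *Cpne2*, is among the 5 genes most like *Anxa8* and passed the filter only through the WT 2i libraries, so its difference on loss of P53 in 2i is a description: -4.62 on the log2 scale with a pseudocount of 0.1 and -1.92 with 1. The other 3 were not called in 2i, in serum or in the difference of the 2 effects, where 10.3%, 1.02% and 0.207% of all genes tested were, and 1, 0 and 0 of them had an unadjusted p under 0.05 in limma, against 25.2%, 11.3% and 13.1%.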

How the data were processed

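The RNA-seq libraries came from G1-sorted R1 FUCCI ESCs, WT or P53-/-, in 2i or serum, 4 groups of 2. Total RNA was depleted of ribosomal RNA and made into stranded libraries with random primers. The authors deposited 1 table of FPKM values per gene symbol. The submitters' processing notes name STAR, Cufflinks, DESeq2 and mm9 without versions or roles. FPKM are not counts, so no count model was used. Of the labelled samples, 2 P21 knockout and 2 further WT 2i samples were not analysed here.

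Column names give genotype and culture only, and libraries were grouped by them. Of each library's summed FPKM, small RNA genes made up 88.5% to 97.9%, and median-ratio factors lay between 0.9875 and 1.028. No further scaling was applied. Depth was estimated from the step of low values, which leaves a common factor unknown and counting error without an interval. Symbols were matched by name to GENCODE M21 (24425 of 24881).

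Values were transformed to log2(FPKM + 0.1) and fitted with limma 3.58.1 (R 4.3.3). The 12572 genes whose FPKM averaged 0.5 or more entered, in a single fit of the 4 groups with eBayes and trend. P-values were adjusted over all genes tested by the Benjamini-Hochberg method, and calls needed an adjusted p below 0.1 with more than a 1.5-fold difference. With 2 libraries a group, no exact test on 1 gene could pass 0.05. Differences are P53-/- minus WT, and 2i minus serum. The genes named are the 9 members, *Anxa9*, *Anxa10* and *Anxa13*, *S100a10*, *S100a11*, any gene of the partner, membrane repair and copine lists called in a P53 comparison, the 5 genes most correlated with *Anxa8*, and *Trp53*. Cell type markers, among them *Klf4*, *Krt7*, *Tal1*, *Gata4* and *Hnf4a*, were named after their values were seen. The members and lists were chosen with earlier results of these data known. *Anxa8*, *Cpne2*, *Ms4a10*, *Hnf4a* and *T* passed the filter through WT 2i alone, *Krt7* through P53-/- 2i alone and *Meox1* through serum alone. No p is given for these genes in any comparison, and counts of members leave *Anxa8* out. The fit was tested on simulated data. The settings varied were the pseudocount (1 or 0.01), the filter (any gene above 0, or an average FPKM of 1), scaling by median ratios, quantile normalization, a fit of the compared groups alone, eBayes with no trend, removal of small RNA genes, a threshold of 0.05 on adjusted p, and leaving out each library. Tables and figures were made in Python 3.11.15 (numpy 2.4.6, pandas 2.3.3, matplotlib 3.10.9).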

Additional observations from a re-analysis of the deposited data

How the results depend on the processing

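No paired analysis was possible because the columns carry no replicate numbers. Of the P53 comparison in 2i, the 1 call (*Anxa1*) became 0 with the compared groups only and with an adjusted p under 0.05, and 0 to 1 when a library was left out, where the 1 without WT 2i library 1 was *Anxa2*, called higher, and not *Anxa1*. The 1 call in serum (*Anxa5*) became 0 with all genes above 0, quantile normalization, compared groups only, eBayes without trend and an adjusted p under 0.05, and 0 to 1 when a library was left out. The difference of the 2 effects had 0 calls in all settings it could be fitted in and 0 to 1 without a library. The fit of compared groups only does not apply to it, since all 4 groups enter. The culture comparison kept 5 to 7 calls in WT (6 as reported) and 7 to 8 in P53-/- (8 as reported) across the settings, and 4 to 6 and 5 to 8 without a library. The lowest in WT, 4, came without WT serum library 2, and the lowest in P53-/-, 5, without P53-/- serum library 2. Where a library was left out, the lone one was assumed to vary like the other groups.

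The sign of the difference of the 2 effects turned for *Anxa1* with quantile normalization, -0.042 against 0.09. Without a library, signs also turned in log2 differences that were not called. In the P53 comparison in 2i these spanned -0.0024 to 0.91 for *Anxa2*, -0.060 to 0.34 for *Anxa4* and -0.18 to 0.42 for *Anxa6*. In serum they spanned -0.050 to 0.49 for *Anxa6* and -0.30 to 0.034 for *Anxa11*. In the difference of the 2 effects they spanned -0.086 to 0.27 for *Anxa1*, -0.40 to 0.20 for *Anxa6* and -0.25 to 0.086 for *Anxa11*, and for 2i against serum in WT -0.66 to 0.15 for *Anxa3*. The causes of these changes were not tested. Fits that left out libraries or groups also had fewer samples. *Anxa8* outside WT 2i and *Anxa10* rest on few fragments.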
